A study of Mus musculus with 12 samples.

Results

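Tenascin C (Tnc), tenascin N (Tnn), periostin (Postn), SPARC (Sparc), the SPARC-related genes Smoc1 and Smoc2, and thrombospondins 1, 2 and 3 (Thbs1, Thbs2 and Thbs3) encode secreted matricellular proteins. Their values were read by gene symbol from a table of 39032 genes, in which all 9 were present. The table gives FPKM, fragments scaled to transcript length and to the fragments of the library, for MC3T3-E1 subclone 14, a clonal mouse calvarial pre-osteoblast line, so that a single wild-type clone stands for osteoblasts here. All cells were grown to day 5 in osteogenic medium with ascorbic acid phosphate and β-glycerophosphate, which the untreated cells received too. The 4 arms compared, of 3 biological replicates described as independent, were recombinant BMP2 at 100 ng/ml with recombinant RSPO2 at 200 ng/ml (BMP2+RSPO2), BMP2 alone at 100 ng/ml (BMP2), RSPO2 alone at 200 ng/ml (RSPO2) and vehicle (Control). The design asks what each protein, and the pair of them, does to gene expression in these cells. Of the 9 genes, 8 passed a filter of at least 1 FPKM in at least 3 of the 12 libraries and were tested with 11548 genes in all. Smoc1 did not pass it. Smoc2 passed with exactly 3 libraries, BMP2 replicates 2 and 3 and Control replicate 3, and is counted among the 8 below.

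Matricellular proteins are laid into or bound to the extracellular matrix and act on how cells attach to it, on the assembly of collagen and on the availability of growth factors, more than as load-bearing parts. In bone, osteoblasts secrete SPARC, also called osteonectin, which binds collagen and mineral, and periostin is known from the periosteum. BMP2 is a ligand of the TGF-β family that signals through SMAD proteins and drives osteoblast differentiation, and RSPO2 (R-spondin 2) is a secreted protein that amplifies Wnt signalling.

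Promoter windows are shown first so that the start regions of genes with opposite changes can be read side by side. Of the 9 genes, 6 had an entry in the RefSeq promoter table (build GRCm38.p6), with 8 windows in all, each running from 250 bases before to 50 bases after an annotated start, and Thbs1, Smoc1 and Smoc2 are not shown. The 5 windows below belong to genes called in at least 1 comparison, are printed 5′ to 3′ on the strand of the gene, and carry matches to the searched motifs in capitals. The motifs, read on both strands, were CAGAC and GGCGCC for SMAD proteins, CTTTGA or CTTTGT for TCF/LEF factors of the Wnt pathway, TGTGGT for RUNX factors, and TATAAA for a TATA box.
Thbs2, chr17:14694213-14694512, minus strand: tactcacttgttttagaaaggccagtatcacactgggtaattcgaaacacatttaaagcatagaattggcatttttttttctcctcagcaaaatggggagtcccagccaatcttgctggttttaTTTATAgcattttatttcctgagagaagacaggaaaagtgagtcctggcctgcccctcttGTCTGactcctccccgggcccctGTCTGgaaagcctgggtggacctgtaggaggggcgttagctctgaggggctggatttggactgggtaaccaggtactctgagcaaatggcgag
Thbs3, chr3:89214930-89215229, plus strand: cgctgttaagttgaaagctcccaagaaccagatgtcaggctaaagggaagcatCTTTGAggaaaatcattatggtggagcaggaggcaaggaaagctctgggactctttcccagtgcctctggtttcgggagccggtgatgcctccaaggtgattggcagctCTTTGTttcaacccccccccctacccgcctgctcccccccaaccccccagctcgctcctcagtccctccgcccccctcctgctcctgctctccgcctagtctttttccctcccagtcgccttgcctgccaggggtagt
Sparc, chr11:55420031-55420330, minus strand: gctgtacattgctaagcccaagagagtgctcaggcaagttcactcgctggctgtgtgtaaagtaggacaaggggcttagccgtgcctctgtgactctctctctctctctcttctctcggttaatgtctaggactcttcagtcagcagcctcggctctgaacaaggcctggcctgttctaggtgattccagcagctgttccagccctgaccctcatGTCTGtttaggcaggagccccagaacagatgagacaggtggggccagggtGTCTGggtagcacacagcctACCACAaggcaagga
Postn, chr3:54360857-54361156, plus strand: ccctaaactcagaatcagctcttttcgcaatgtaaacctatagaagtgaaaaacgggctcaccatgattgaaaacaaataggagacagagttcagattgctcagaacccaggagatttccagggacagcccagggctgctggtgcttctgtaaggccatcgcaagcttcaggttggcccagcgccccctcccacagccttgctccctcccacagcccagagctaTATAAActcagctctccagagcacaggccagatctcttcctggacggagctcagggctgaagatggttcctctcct
Tnc, chr4:64046966-64047265, minus strand: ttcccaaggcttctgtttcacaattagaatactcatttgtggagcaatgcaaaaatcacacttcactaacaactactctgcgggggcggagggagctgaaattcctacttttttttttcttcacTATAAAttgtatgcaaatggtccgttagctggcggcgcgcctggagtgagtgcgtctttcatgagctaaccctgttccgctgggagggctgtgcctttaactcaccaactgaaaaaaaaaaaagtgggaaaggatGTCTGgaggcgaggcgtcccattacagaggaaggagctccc

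The Thbs2 window held the CAGAC motif on the opposite strand (GTCTG) at positions -66 and -43 from the start, and a TATA motif, also on the opposite strand, at -126. The Thbs3 window held the TCF/LEF motif, with CTTTGA at -197 and CTTTGT at -88. In the Sparc window GTCTG stood at -35 and 15 and the RUNX motif, as ACCACA, at 35, while the Tnc window held GTCTG at 9 and TATAAA at -126. The printed Postn window had a single match, TATAAA at -26. Postn and Tnc each had another window, not printed because it lay further from a start in GENCODE. That of Postn held CAGAC at -191. That of Tnc held CAGAC at 39, GTCTG at -70 and TATAAA at -205, of which GTCTG and TATAAA are the same bases as in the printed window. The Tnn window, on chromosome 1, matched none of these letters. Among the 32851 windows of that table, CAGAC occurred in 49.6%, GGCGCC in 11.9%, CTTTGA or CTTTGT in 31.2%, TGTGGT in 16.8% and TATAAA in 13.6%. These shares count a match at any position and on either strand. The matches are given as a description only.

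The libraries were not alike. In BMP2+RSPO2 replicate 1 the FPKM values summed to 635139, against 322074 to 380507 in the other libraries, and the 10 highest genes took 57.8% of that sum, against 11.4% to 19.8%. Replicate 1 of every arm also had the highest median FPKM of 10 cell cycle genes in its arm, for example 26.6 against 8.49 and 8.36 in BMP2+RSPO2, and 56.9 against 11.9 and 14.4 in Control. All 6 osteoblast markers reached 1 FPKM in at least 1 library, with summed levels of 12910 to 17540 FPKM in BMP2+RSPO2, 9866 to 11551 FPKM in BMP2, 4289 to 6945 FPKM in RSPO2 and 4661 to 7346 FPKM in Control. Col1a1 made up most of each sum. Bglap2 had 57.88 FPKM in BMP2+RSPO2 replicate 1, within the Control range of 37.83 to 68.27 FPKM, against 1380 and 1297 FPKM in replicates 2 and 3. The other osteoblast markers in that library lay above all Control libraries. The chondrocyte markers Acan, Col9a1 and Matn1 and the blood markers Ptprc and Adgre1 were listed at 0 in all libraries. The summed level of 4 smooth muscle markers was 290.1 to 317 FPKM in BMP2+RSPO2, 697 to 748 FPKM in BMP2, 1148 to 1656 FPKM in RSPO2 and 1246 to 1544 FPKM in Control, with 2 of the 4 never at 1 FPKM. That of the 3 tendon markers in the table was 281 to 307 FPKM in BMP2+RSPO2, 439 to 648 FPKM in BMP2, 617 to 807 FPKM in RSPO2 and 676 to 774 FPKM in Control. Fmod made up most of each tendon sum. The chondrocyte markers summed to 13.4 to 20.8 FPKM in BMP2+RSPO2, 20.8 to 43.2 FPKM in BMP2, 3.54 to 4.47 FPKM in RSPO2 and 6.54 to 12.2 FPKM in Control. The adipocyte list reached at most 0.39 FPKM. The endothelial list reached at most 5.5 FPKM in BMP2+RSPO2, 1.03 FPKM in BMP2, 0.04 FPKM in RSPO2 and 0.18 FPKM in Control. Its maximum was in BMP2+RSPO2 replicate 1, where Cdh5 had 3.89 FPKM. The blood list reached at most 4.35 FPKM in BMP2+RSPO2, 2.08 FPKM in BMP2, 1.29 FPKM in RSPO2 and 1.41 FPKM in Control. These levels moved with the arms as the results below do, and their part in those results was not tested. In bulk RNA, fewer cells of a type and less RNA per cell cannot be told apart. The table gives no counts, so the sequencing depth is unknown.

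FPKM is scaled to length, so levels can be compared between genes. Sparc was by far the most abundant of the 9, between the 3rd and the 11th highest gene of the table in every library and 0.709% to 3.15% of the summed FPKM. Behind it the order differed by arm. In BMP2+RSPO2 cells Thbs1 came second, above Tnc and then Postn, with no overlap between neighbours, while the ranges of Tnn and Thbs2 overlapped. BMP2 cells had Tnc second, above Postn and then Thbs1 without overlap, and Tnn and Thbs2 again overlapped. In RSPO2 cells Thbs2 and Postn overlapped, as did Tnc and Thbs1 below them. In Control cells Postn and Tnc overlapped, and so did Thbs2 and Thbs1. Thbs3 stayed between 2.39 and 4.37 FPKM in all 12 libraries, and Smoc1 and Smoc2 stayed at or below 1.35 FPKM.

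**Figure D1:**
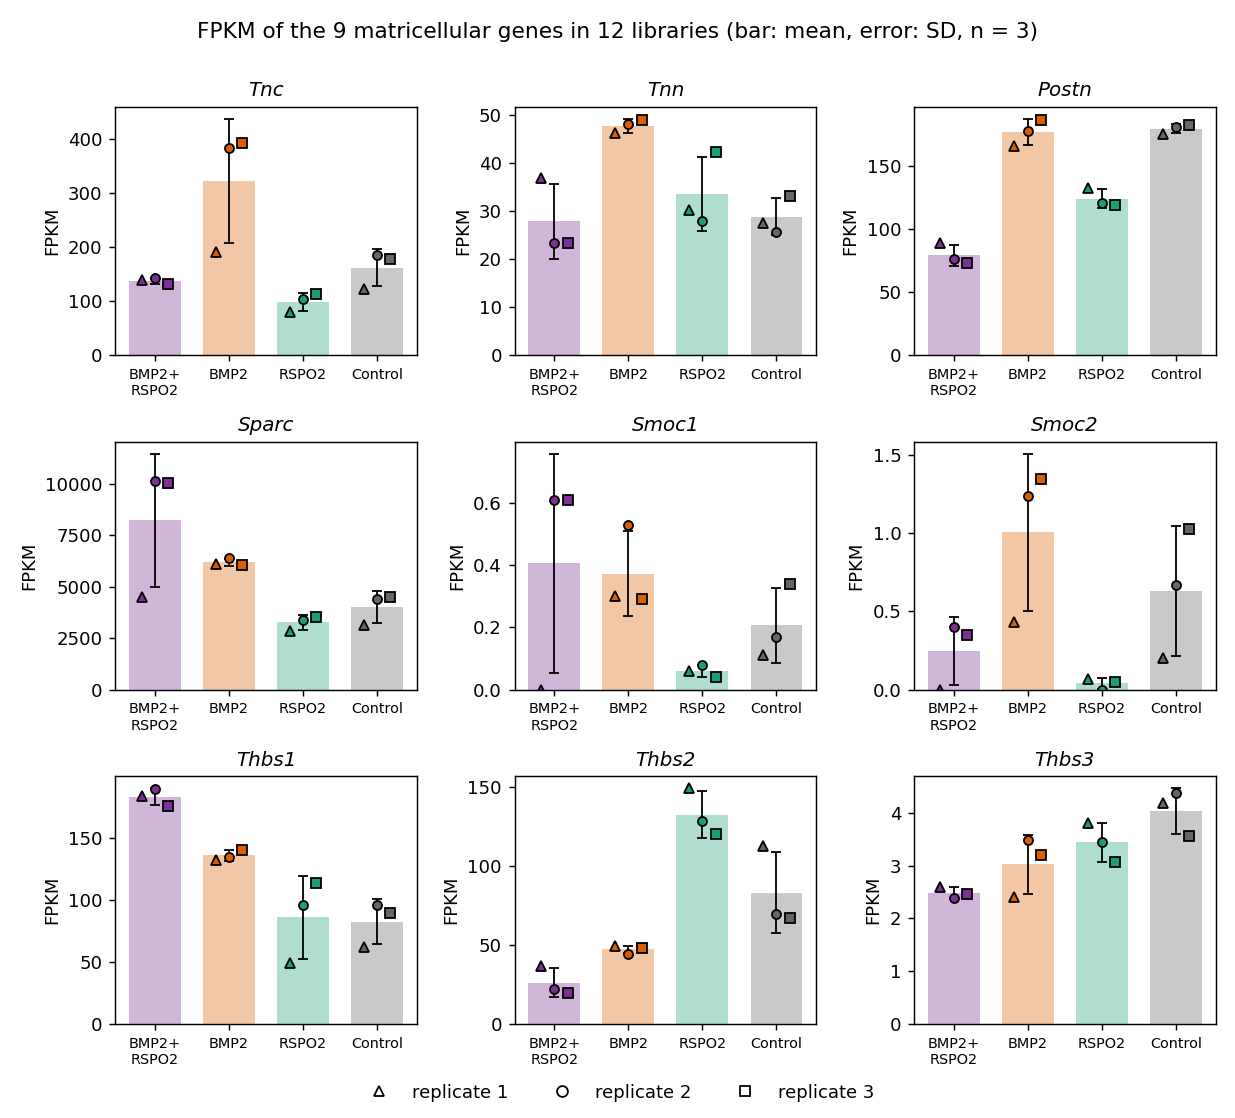
FPKM of each of the 9 genes (vertical axis, from 0, a scale of its own per gene) in the BMP2+RSPO2, BMP2, RSPO2 and Control arms, with bars at the mean, error bars of 1 SD (n = 3) and a point for each replicate. Postn lies at 73.2 to 88.9 FPKM in BMP2+RSPO2, below every other library, and Thbs2 has its highest point in replicate 1 of every arm.

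More of these genes passed the test with the combination than with either protein alone. In BMP2+RSPO2 against Control, 2 of the 8 tested genes were higher (Sparc and Thbs1) and 3 were lower (Postn, Thbs2 and Thbs3) at an adjusted p under 0.05 (limma, Benjamini-Hochberg over all genes tested), where 23% of all tested genes were called, 3.65% higher and 19.4% lower. In BMP2+RSPO2 against RSPO2 the calls were Sparc and Thbs1 higher and Postn and Thbs2 lower, where 26.1% of all tested genes were called, 4.32% higher and 21.8% lower. In BMP2+RSPO2 against BMP2, Postn and Tnc were lower and none was higher, where 4.38% of all tested genes were called, 0.641% higher and 3.74% lower. With the replicate number as a block, 5 of 8 members and 1710 genes in all were called in that comparison, against 2 and 506 without it. These 5 include Smoc2, which passed the filter only through BMP2 and Control libraries, where it was higher. Its call is therefore not support for a fall. These 3 comparisons share the BMP2+RSPO2 libraries, and those against Control share the Control libraries, so they are not independent of each other. The median log2 change of the 8 genes was -0.29, -0.01 and -0.73 in these 3 comparisons, against -0.26, -0.26 and -0.19 for all tested genes. Without overlap between the arms, 1 was higher and 3 were lower against Control, and 3 were higher and 3 lower against RSPO2. Against BMP2, 1 was higher and 5 were lower, Smoc2 again among the 5. Of all tested genes, 44% had no overlap against Control (6.68% higher and 37.3% lower), 42.3% against RSPO2 (6.22% higher and 36.1% lower) and 33.6% against BMP2 (4.97% higher and 28.6% lower).

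With a single protein no member passed the test in the fit of the 4 arms without the replicate block. In BMP2 against Control, 0 of 8 were called by limma, 5 were at an unadjusted p under 0.05, and 1.52% of all tested genes were called (9.93% at an unadjusted p under 0.05). With the replicate block, Tnc (adjusted p = 0.0381) and Thbs2 (adjusted p = 0.0356) were called, with 329 genes in all. Not every same-numbered pair of these libraries deviated together. The BMP2 and Control libraries did not overlap for 6 of 8, Tnc, Tnn, Sparc and Thbs1 being higher and Thbs2 and Thbs3 lower in BMP2, where 20.8% of all tested genes did not overlap (6.23% higher and 14.6% lower). In RSPO2 against Control, 0 of 8 were called, 4 were at an unadjusted p under 0.05, and 0.0779% of all tested genes were called, 9 genes, or 26 with the replicate block (3.62% at an unadjusted p under 0.05). The RSPO2 and Control libraries did not overlap for 4 of 8, Thbs2 being higher and Tnc, Postn and Smoc2 lower in RSPO2, where 9.33% of all tested genes did not overlap (5.81% higher and 3.52% lower). Smoc2 is in these counts although it passed the filter only through BMP2 and Control libraries. The interaction is the log2 change of BMP2+RSPO2 against BMP2 minus that of RSPO2 against Control. It was called for 0 of 8, with 3 at an unadjusted p under 0.05, where 0.294% of all tested genes were called (13% at an unadjusted p under 0.05). With the replicate block it was called for 1 of 8 and for 91 genes in all.

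**Figure D2:**
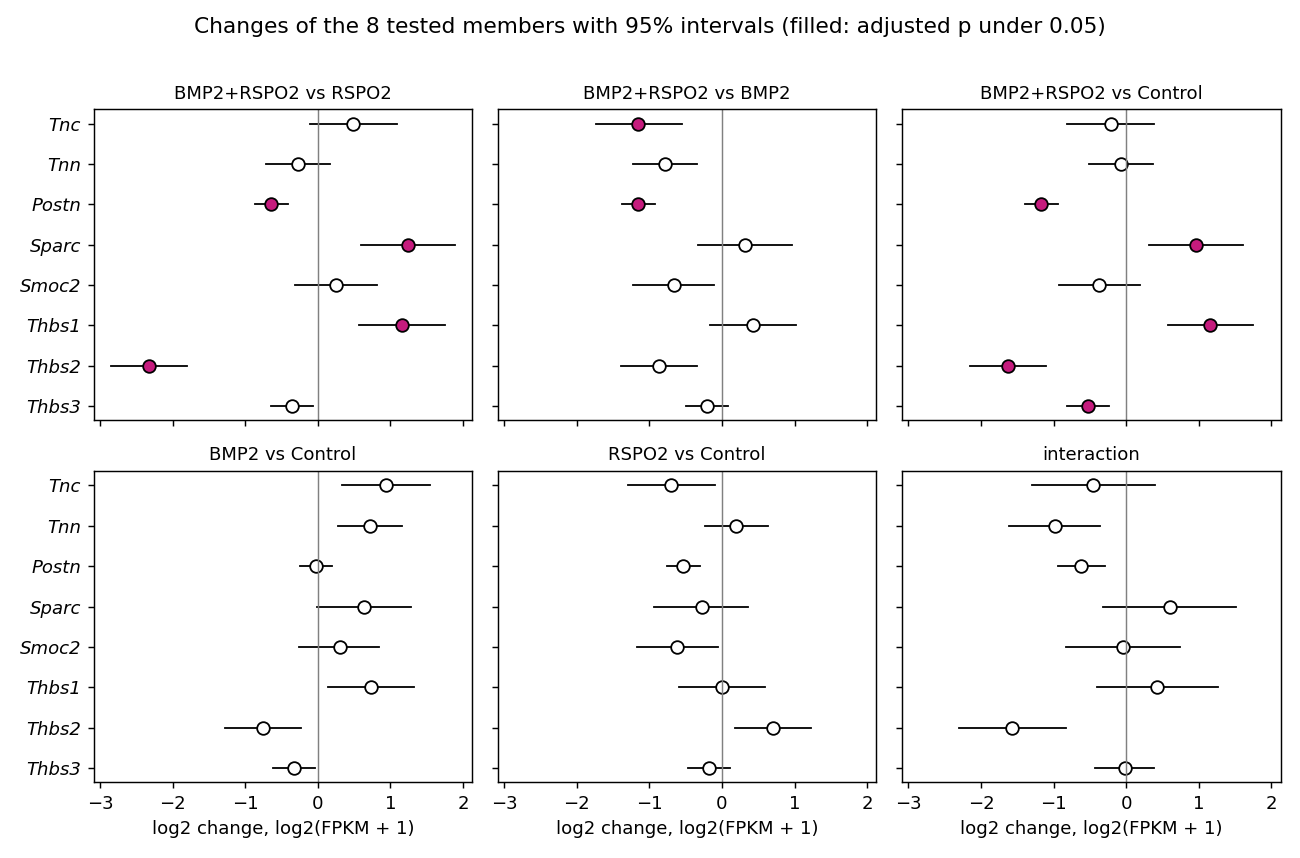
Log2 change on the log2(FPKM + 1) scale (horizontal axis) of the 8 tested genes in the 6 comparisons, with 95% intervals of the limma fit, filled where the adjusted p is under 0.05. Filled points appear only in the 3 comparisons of BMP2+RSPO2 with another arm, among them Thbs2 at -2.33 and Thbs1 at 1.16 against RSPO2. The interaction, which also uses the BMP2+RSPO2 libraries, has none.

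Tnc is an adhesion-modulating glycoprotein of developing and remodelling bone and tendon. It was lower with RSPO2 than without it both in the presence and in the absence of BMP2, with a call only in its presence. Its 3 libraries had 139.9, 142 and 132 FPKM in BMP2+RSPO2, 190.1, 384 and 393 FPKM in BMP2, 80.2, 103 and 113 FPKM in RSPO2, and 122, 185 and 178 FPKM in Control. All BMP2 libraries lay above all others, although BMP2 replicate 1 lay close to the highest Control library, and all RSPO2 libraries lay below all others. Tnc fell in BMP2+RSPO2 against BMP2, to 137.8 ± 5.57 FPKM against 322.2 ± 114.5 FPKM (SD, n = 3 each), a log2 change of -1.15 (SE 0.27, adjusted p = 0.0428). Of the 12 fits that each left out 1 library, the call held in 3, those without replicate 1 of BMP2, RSPO2 or Control. The change stayed between -1.49 and -0.97 in these fits, with an adjusted p of up to 0.139, and was -0.95 (adjusted p = 0.132) after median-of-ratios scaling. BMP2 against Control gave 0.94 (SE 0.27, adjusted p = 0.17) and RSPO2 against Control gave -0.70 (SE 0.27, adjusted p = 1). Without BMP2 replicate 1, BMP2 against Control gave 1.28 with an adjusted p of 0.0193. In BMP2+RSPO2 against Control the change was -0.21, with a 95% interval of -0.81 to 0.39, and it was 0.05 after median-of-ratios scaling. The interaction of Tnc was -0.45 (95% interval -1.30 to 0.40, adjusted p = 0.609).

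Tnn, also called tenascin W and found in developing bone, had its highest values in BMP2 cells. The libraries had 36.9, 23.4 and 23.3 FPKM in BMP2+RSPO2, 46.2, 48.1 and 49.0 FPKM in BMP2, 30.3, 27.9 and 42.4 FPKM in RSPO2, and 27.55, 25.75 and 33.2 FPKM in Control. The BMP2 libraries overlapped with no other arm, and the other 3 arms overlapped with each other. BMP2 against Control gave a log2 change of 0.72 (SE 0.20, adjusted p = 0.148), and BMP2+RSPO2 against BMP2 gave -0.79 (SE 0.20, adjusted p = 0.0509, or 0.0321 with the replicate block). Without BMP2+RSPO2 replicate 1, which held the highest value of its arm, both changes passed the test, at 0.72 (adjusted p = 0.0346) and -1 (adjusted p = 0.0136). The interaction was -0.98 (adjusted p = 0.188), and -1.20 (adjusted p = 0.0401) without that library.

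Postn, which binds collagen and fibronectin and takes part in collagen cross-linking, fell in the combined arm against every other arm. It had 88.9, 76.05 and 73.2 FPKM in BMP2+RSPO2, 166, 178 and 187 FPKM in BMP2, 133, 121 and 119 FPKM in RSPO2, and 175, 181 and 183 FPKM in Control. The values form 3 levels without overlap, with BMP2+RSPO2 lowest, RSPO2 between, and BMP2 and Control together at the top. The combined arm averaged 79.4 ± 8.34 FPKM, against 176.9 ± 10.4 FPKM in BMP2, a log2 change of -1.15 (SE 0.10, adjusted p = 0.000683). Its p was the 5th smallest of the 11548 genes in that comparison. Against Control, at 179.8 ± 3.83 FPKM, the change was -1.17 (SE 0.10, adjusted p = 9.25e-05). Both calls held in every fit that left out 1 library and under each scaling, pseudocount and filter tried. Against RSPO2, at 124.2 ± 7.33 FPKM, the change was -0.64 (adjusted p = 0.0018), and -0.37 (adjusted p = 0.06) after median-of-ratios scaling.

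RSPO2 alone gave a Postn change of -0.53 against Control (SE 0.10, unadjusted p = 3.81e-04, adjusted p = 0.169), which had an adjusted p of 0.0359 without BMP2+RSPO2 replicate 1. BMP2 alone gave -0.02, with a 95% interval of -0.25 to 0.20, and its sign differed between scalings. The interaction was -0.62 (SE 0.15, adjusted p = 0.125), and -0.70 (adjusted p = 0.0243) without BMP2+RSPO2 replicate 1.

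Sparc, the collagen- and mineral-binding glycoprotein osteonectin, was highest in 2 of the 3 combined libraries. It had 4501.1, 10146 and 10073 FPKM in BMP2+RSPO2, 6129.5, 6387 and 6059 FPKM in BMP2, 2874, 3399.7 and 3537 FPKM in RSPO2, and 3145, 4402 and 4512 FPKM in Control. BMP2+RSPO2 replicate 1 lay below all BMP2 libraries and just below the highest Control library, while replicates 2 and 3 lay above every library of the other arms. Sparc rose in BMP2+RSPO2 against Control, to 8239.8 ± 3238 FPKM against 4019.7 ± 759.1 FPKM, a log2 change of 0.96 (SE 0.29, adjusted p = 0.0387). Without BMP2+RSPO2 replicate 1 the change was 1.35 (adjusted p = 0.000492), whereas in each of the other 11 fits that left out 1 library it was not called, with values down to 0.76 and an adjusted p of up to 0.138. Quantile normalization, which gives all libraries the same distribution of values, reduced it to 0.14 (adjusted p = 0.826).

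Against RSPO2, Sparc rose by 1.24 on the log2 scale (SE 0.29, adjusted p = 0.012), a call that held in each of the 12 fits leaving out 1 library but not after quantile normalization, at 0.65 (adjusted p = 0.258). BMP2 against Control gave 0.64 (SE 0.29, adjusted p = 0.515), or adjusted p = 0.0377 without BMP2+RSPO2 replicate 1, since the fit shares 1 estimate of the spread. BMP2+RSPO2 against BMP2 gave 0.32 (adjusted p = 0.499), 0.71 (adjusted p = 0.0312) without that library and -0.35 after quantile normalization. The interaction of Sparc was 0.60 (95% interval -0.32 to 1.52, adjusted p = 0.541).

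Smoc1 and Smoc2, which are secreted SPARC-related proteins with calcium-binding modules, were near the lower end of what was detected. Smoc1 had 0, 0.61 and 0.61 FPKM in BMP2+RSPO2, 0.30, 0.53 and 0.29 FPKM in BMP2, 0.06, 0.08 and 0.04 FPKM in RSPO2, and 0.11, 0.17 and 0.34 FPKM in Control. It was listed at 0 in BMP2+RSPO2 replicate 1 and was not tested. Smoc2 had 0, 0.40 and 0.35 FPKM in BMP2+RSPO2, 0.43, 1.24 and 1.35 FPKM in BMP2, 0.07, 0 and 0.05 FPKM in RSPO2, and 0.20, 0.67 and 1.03 FPKM in Control. The RSPO2 libraries of both genes lay below all BMP2 and all Control libraries. For Smoc2, RSPO2 against Control gave a log2 change of -0.62 (unadjusted p = 0.0325, adjusted p = 1) and BMP2+RSPO2 against BMP2 gave -0.66 (adjusted p = 0.135, or 0.0492 with the replicate block). Neither passed the test without the block, and the pseudocount of 1 understates changes at these levels. Smoc2 passed the filter only through BMP2 and Control libraries, where it was higher, so neither change is support for an effect of RSPO2.

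Thbs1, an activator of latent TGF-β and a ligand of CD47, rose when BMP2 and RSPO2 were combined. It had 184, 189 and 175 FPKM in BMP2+RSPO2, 132, 134 and 140.1 FPKM in BMP2, 48.9, 95.7 and 113 FPKM in RSPO2, and 62.4, 95.9 and 89.2 FPKM in Control. The combined libraries lay above all others and the BMP2 libraries above all of RSPO2 and Control, which overlapped. The combined arm averaged 182.7 ± 6.91 FPKM, against 82.5 ± 17.8 FPKM in Control, a log2 change of 1.16 (SE 0.27, adjusted p = 0.0121). Against RSPO2, at 85.9 ± 33.2 FPKM, the change was also 1.16 (SE 0.27, adjusted p = 0.0105). Both calls held in every fit that left out 1 library and under the other scalings, where they were 1.42 and 1.44 after median-of-ratios scaling. BMP2 against Control gave 0.73 (SE 0.27, adjusted p = 0.317) and BMP2+RSPO2 against BMP2 gave 0.43 (adjusted p = 0.325). RSPO2 against Control gave 0.00, with a 95% interval of -0.59 to 0.59 and a sign that differed between settings. The interaction of Thbs1 was 0.43 (95% interval -0.40 to 1.26, adjusted p = 0.617).

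Thbs2, a thrombospondin known for limiting angiogenesis and for its part in collagen fibril assembly, went the other way. It had 36.5, 22.55 and 20.0 FPKM in BMP2+RSPO2, 49.35, 44.7 and 47.9 FPKM in BMP2, 149, 128 and 119.9 FPKM in RSPO2, and 113, 69.5 and 67.15 FPKM in Control. No arm overlapped with another: BMP2+RSPO2 was lowest, then BMP2, then Control, and RSPO2 was highest. Thbs2 fell in the combined arm to 26.4 ± 8.89 FPKM, against 132.5 ± 15.0 FPKM in RSPO2, a log2 change of -2.33 (SE 0.24, adjusted p = 0.000123), the largest change among the 48 member results. Against Control, at 83.1 ± 25.7 FPKM, the change was -1.63 (SE 0.24, adjusted p = 0.00146). Both calls held in every fit that left out 1 library and under each other setting tried.

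RSPO2 alone and RSPO2 on top of BMP2 gave Thbs2 changes of opposite sign. RSPO2 against Control gave 0.70 (SE 0.24, unadjusted p = 0.0136, adjusted p = 0.897), whereas BMP2+RSPO2 against BMP2 gave -0.87 (SE 0.24, adjusted p = 0.0634, or 0.0147 with the replicate block), and BMP2 against Control gave -0.76 (adjusted p = 0.209). The test of the difference, the interaction, was -1.57 (SE 0.34, unadjusted p = 7.61e-04), and its adjusted p of 0.0999 over all genes missed the threshold. With the replicate block the interaction had an adjusted p of 0.0292, though not every same-numbered pair of libraries deviated together. Without BMP2+RSPO2 replicate 1 it was -1.82 (adjusted p = 0.0187), and after median-of-ratios scaling -1.37 (adjusted p = 0.144). Replicate 1, the one with the high cell cycle level, had the highest Thbs2 value in 4 of 4 arms and the lowest Tnc, Sparc and Thbs1 values in 3 of 4 arms each. The part of this in the results was not tested. With replicates 2 and 3 alone, a choice made after the data were seen, the interaction was -1.94 (adjusted p = 0.00146).

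Thbs3, a pentameric thrombospondin expressed in cartilage and bone, was low in every arm. It had 2.60, 2.39 and 2.47 FPKM in BMP2+RSPO2, 2.40, 3.48 and 3.19 FPKM in BMP2, 3.81, 3.45 and 3.07 FPKM in RSPO2, and 4.18, 4.37 and 3.55 FPKM in Control. The combined libraries lay below all RSPO2 and Control libraries and overlapped with BMP2. It fell in BMP2+RSPO2 against Control by 0.53 on the log2 scale (SE 0.13, adjusted p = 0.017), to 2.49 ± 0.106 FPKM against 4.03 ± 0.429 FPKM. The call was lost after median-of-ratios scaling, at -0.33 (adjusted p = 0.138), and without Control replicate 1 or 2, with an adjusted p of up to 0.0612. Thbs3 overlaps Mtx1, a gene on the opposite strand, which had 4.74 to 10.44 FPKM. The libraries were stranded, but whether strand was used in the quantification is not given in the sources used here. Reads of these neighbours may therefore not be told apart.

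**Figure D3:**
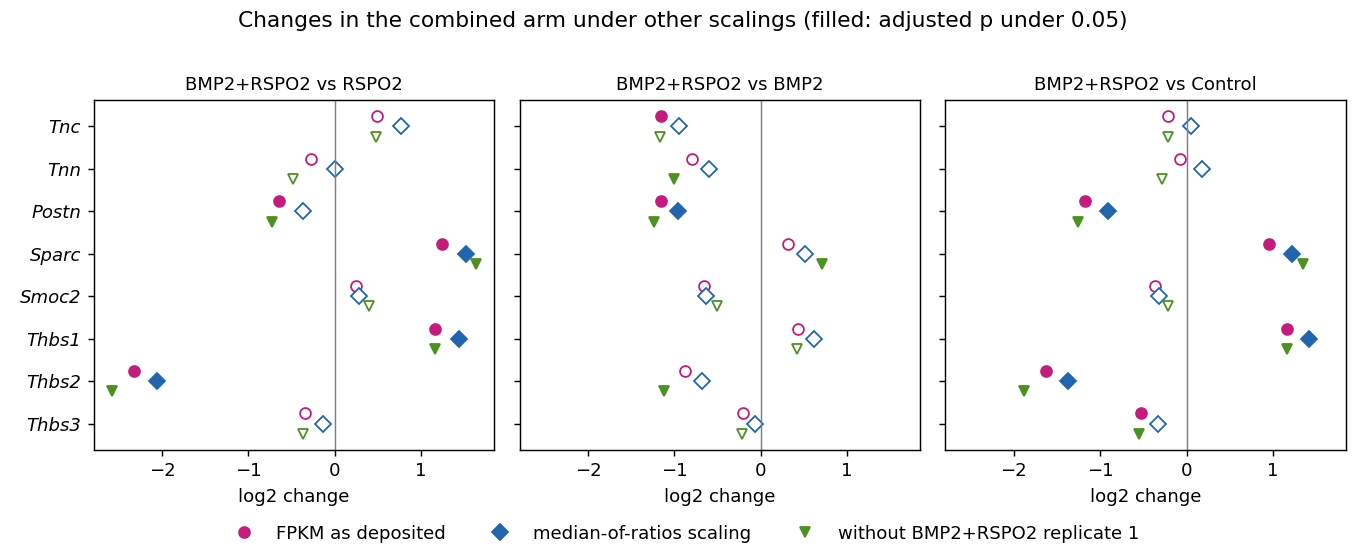
Log2 change (horizontal axis) of the 8 tested genes in BMP2+RSPO2 against each other arm, from FPKM as deposited (circles), after median-of-ratios scaling (diamonds) and without BMP2+RSPO2 replicate 1 (triangles), filled where the adjusted p is under 0.05. Diamonds lie to the right of circles for every gene, and Thbs1, Thbs2 and Sparc stay filled in both the RSPO2 and the Control panels.

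The scaling bears on the direction of small changes. As deposited, the median log2 change of all tested genes was -0.26 in BMP2+RSPO2 against RSPO2, -0.19 against BMP2 and -0.26 against Control, and median-of-ratios scaling moved these to -0.03, -0.03 and -0.04. The calls over all genes in BMP2+RSPO2 against Control were 421 higher and 2235 lower as deposited, and 770 higher and 869 lower after that scaling. In the same comparison the changes of Tnc (-0.21) and Tnn (-0.07) lay above the deposited median, and were 0.05 and 0.18 after scaling.

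Relatives of these proteins were mostly low or fell in the combined arm. Of 10 genes listed as relatives, 4 were tested and all 4 were lower in BMP2+RSPO2 against Control. Fstl1, a secreted follistatin-like member of the SPARC family, fell to 48.9 ± 1.85 FPKM in BMP2+RSPO2, against 131.7 ± 22.5 FPKM in Control, a log2 change of -1.40 (adjusted p = 0.000133), and also fell in BMP2 against Control (-0.76, adjusted p = 0.018), a call that held in 7 of 12 fits that left out 1 library, with an adjusted p of up to 0.0845. Tgfbi, the closest relative of periostin, fell by 1.20 on the log2 scale (adjusted p = 0.00512). Sparcl1, a SPARC homologue also called hevin, fell by 1.26 (adjusted p = 0.0124), and Spock2, a proteoglycan of the same family, fell by 1.05 (adjusted p = 0.0256), a call lost after median-of-ratios scaling and in 4 of 12 fits that left out 1 library. Against RSPO2, 3 of the 4 were lower (Fstl1, Tgfbi and Sparcl1), and against BMP2 only Fstl1 was, at -0.63 (adjusted p = 0.0309), which held in 5 of 12 fits that left out 1 library. Among the untested relatives, Comp averaged 0.683 FPKM in BMP2+RSPO2, 0.983 FPKM in BMP2, 0.243 FPKM in RSPO2 and 0.383 FPKM in Control, Tnxb, Tnr and Thbs4 were at or below 0.31 FPKM in every library, and Spock1 and Spock3 were listed at 0 throughout.

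Of 14 receptor genes, 13 were in the table and 11 were tested; Lrp1 was not analysed here. Itga8, the integrin chain that pairs with β1 and binds tenascins and other matrix ligands, fell to 0.453 ± 0.171 FPKM in BMP2+RSPO2, against 6.32 ± 1.77 FPKM in Control, a log2 change of -2.31 (adjusted p = 7.07e-05). It averaged 1.38 ± 0.473 FPKM in BMP2 (-1.61 against Control, adjusted p = 0.00255) and 9.33 ± 0.848 FPKM in RSPO2, the same order of arms as Thbs2. Itga9, another tenascin receptor chain, and Egfr, which binds epidermal growth factor repeats, were the other receptor genes lower in BMP2+RSPO2 against Control, both at -0.64 (adjusted p = 0.0412 and 0.0154) and both below 3 FPKM. Egfr had 0.11 to 0.31 FPKM in BMP2+RSPO2 and passed the filter only through Control replicate 1 and RSPO2 replicates 1 and 2. Its calls against Control and RSPO2 are therefore not support for a fall. Itga8 (0.34 to 0.65 FPKM) and Itga9 (0.44 to 0.93 FPKM) also stayed below 1 FPKM in every BMP2+RSPO2 library. Both passed the filter only through the other arms, where they were higher. The calls of Itga8 and Itga9 in the combined arm are therefore not support for a fall either. Against RSPO2, Itgb5, Itga8, Itga9 and Egfr were lower and Stab1, a scavenger receptor for SPARC, was higher by 0.62 (adjusted p = 0.015). Against BMP2, Sdc4, a heparan sulphate co-receptor, had a change of -0.52 (adjusted p = 0.0347). Itgb1, Itgav and Itgb3, the most abundant receptor genes without a call, averaged 212, 12.9 and 9.01 FPKM over the 12 libraries. The calls of Itga8 held in every fit that left out 1 library. That of Itga9 against Control held in 3 of 12, that of Sdc4 in 4 of 12 and that of Itgb5 in 9 of 12. Egfr against Control lost its call without Control replicate 1, and Stab1 without RSPO2 replicate 1.

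Of 8 genes for matrix partners, all tested, 5 rose and 1 fell in BMP2+RSPO2 against Control, and the same 5 and 1 did so against RSPO2. Col1a1 and Col1a2, the chains of type I collagen that SPARC binds, rose by 1.12 (adjusted p = 0.00961) and 0.85 (adjusted p = 0.0472) against Control, the call for Col1a2 holding in 1 of 12 fits that left out 1 library. Bmp1, a procollagen protease, rose by 0.85 (adjusted p = 0.00537), Lox, the collagen cross-linking oxidase, by 0.69 (adjusted p = 0.021, held in 10 of 12 such fits), and Tgfb1, the growth factor whose latent form thrombospondin 1 activates, by 1.14 (adjusted p = 0.0105). Col3a1, the type III collagen chain, fell to 116.2 ± 16.8 FPKM in BMP2+RSPO2, against 367.3 ± 97.2 FPKM in BMP2, 751.8 ± 25.6 FPKM in RSPO2 and 758.0 ± 17.8 FPKM in Control, with log2 changes of -1.62, -2.69 and -2.70. Fn1, which encodes fibronectin, averaged 661.6 ± 63.5 FPKM in BMP2+RSPO2 and 755.7 ± 131.0 FPKM in Control and was not called, nor was Col5a1. All 3 lists are described by their counts, and the shares of all tested genes called in these comparisons are those given above.

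Across the 12 libraries the members formed opposing pairs. Sparc and Thbs2 had a Pearson r of -0.94 on the log2(FPKM + 1) scale, and -0.93 when each library was taken as its deviation from the mean of its arm. Thbs1 and Thbs2 had an r of -0.86, and -0.50 within arms, while Sparc and Thbs1 had 0.81, and 0.35 within arms. Tnc ran with Smoc2, at 0.89, and 0.75 within arms. These values describe 12 libraries that fall into 4 arms and share library composition and the replicate 1 pattern, so no p is given.

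**Figure D4:**
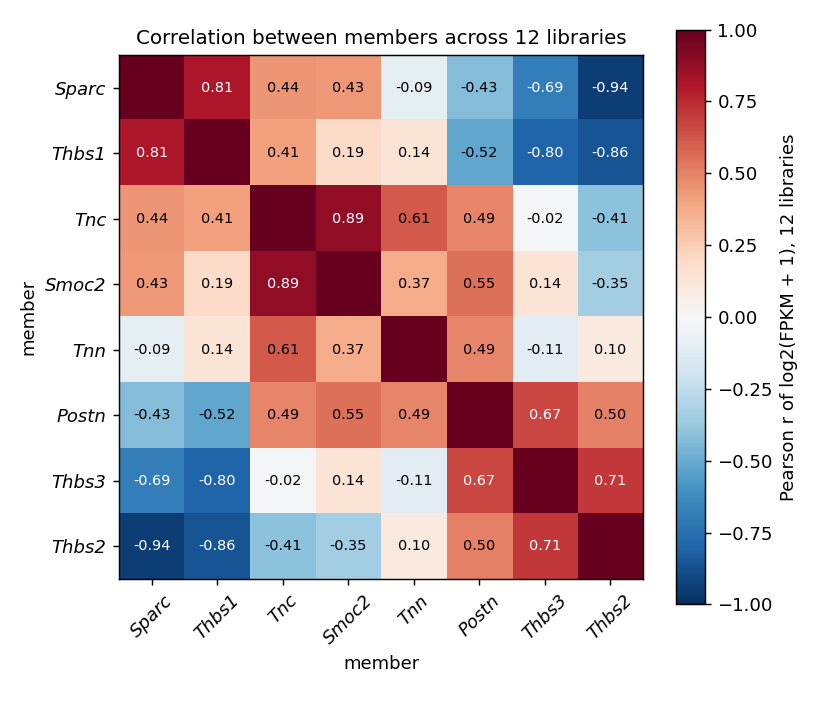
Pearson r between each pair of the 8 tested genes over 12 libraries on the log2(FPKM + 1) scale, from blue (-1) to red (1), with the value in each cell. Sparc and Thbs1 are positive with each other (0.81) and negative with Thbs2 (-0.94 and -0.86).

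By the same measure over the 12 libraries, the genes most like each member were picked from the 11548 tested. For Tnc they were Cmtm4 (0.964), Actn3 (0.955) and Mmp13 (0.946); Mmp13, a collagenase, averaged 0.18 FPKM in BMP2+RSPO2, 27.6 FPKM in BMP2, 0.16 FPKM in RSPO2 and 1.88 FPKM in Control. For Sparc they were Metrnl (0.990), Insig2 (0.984) and Col1a2 (0.982), and for Thbs1 Klf4 (0.968), Lox (0.964) and Ptprs (0.958). For Thbs2 they were Pitrm1 (0.992) and Pgm1 (0.987). Postn was nearest to Siae (0.979) and Cp (0.947). The r values were lower for Tnn, with Arhgap42 (0.848), Ccdc167 (0.825) and Chd3 (0.805), and for the genes at low level, Thbs3 with Ift80 and Ldlrad3 (0.914 each) and Adra1b (0.912), and Smoc2 with Fgd3 (0.918), Ifitm1 (0.917) and F7 (0.912). These genes were taken as the highest of many and are named as a description only.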

How the data were processed

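RNA of 12 libraries was sequenced as stranded poly(A) libraries, per the labels' protocols. Per the submitters' processing notes, cutadapt 1.10, FastQC 0.10.1, HISAT2 2.0, StringTie 1.3.4 and edgeR (no role given) were used, with builds GRCm38 and mm10. The authors deposited 1 FPKM value per gene and library, and 1 p-value and q-value per gene whose comparison is not stated and which were not used. Depth is unknown, so no counting error can be given.

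FPKM as deposited was taken to log2(FPKM + 1). Genes that reached 1 FPKM in 3 or more libraries were fitted with limma 3.58.1 in R 4.3.3, with 4 arms, a variance trend, 8 residual and 2.5 prior degrees of freedom. Tests are two-sided and adjusted by the Benjamini-Hochberg method over all 11548 genes, with calls at an adjusted p under 0.05. Log2 changes understate those of low genes. The method was tested on simulated data. Alternatives were a pseudocount of 0.1, no filter, 2 other scalings, no variance trend, the replicate number as a block and each library left out. The members, lists and alternatives were chosen with earlier results of these data known. All 9 members are named, with list genes called at least once, up to 3 others per list of the highest mean, and the 3 genes of highest r per member, of which 2 are not reported here. Same-numbered libraries correlated above 0.1 in their deviations in 16 of 18 pairs. Block values are given for members whose call changed and for some counts, also in comparisons where not every pair did so. Sequences are from RefSeq, and gene overlaps are from GENCODE vM21.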

Additional observations from a re-analysis of the deposited data

Results flagged for a closer look

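Thbs2 gave changes of opposite sign with RSPO2 in the presence and in the absence of BMP2. All BMP2+RSPO2 libraries (20.0 to 36.5 FPKM) lay below all BMP2 libraries (44.7 to 49.35 FPKM), whereas all RSPO2 libraries (119.9 to 149 FPKM) lay above all Control libraries (67.15 to 113 FPKM). The interaction was -1.57 (SE 0.34, adjusted p = 0.0999, limma), which misses the threshold over all genes, and had an adjusted p of 0.0292 with the replicate block. Itga8 showed the same arrangement, with 0.34 to 0.65 FPKM in BMP2+RSPO2 against 0.84 to 1.70 FPKM in BMP2. It had 8.56 to 10.24 FPKM in RSPO2 against 5.23 to 8.36 FPKM in Control, and an interaction of -1.22 (adjusted p = 0.115). Itga8 passed the filter only through arms other than BMP2+RSPO2, where it was higher. Its change in the combined arm is therefore not support for a fall. For Col3a1 the interaction passed the test at -1.61 (adjusted p = 0.0384): BMP2+RSPO2 against BMP2 gave -1.62, and the RSPO2 libraries (732 to 781 FPKM) overlapped with Control (739.9 to 775 FPKM). That call was lost under 13 of the 19 other settings, both scalings among them.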

How the results depend on the processing

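The 2 Thbs1 and 2 Thbs2 calls against Control and RSPO2, and the Postn calls against Control and BMP2, kept their direction and call under all 19 other settings. Over all genes, 9 were called with RSPO2 and 175 with BMP2 against Control, then 2656, 506 and 3015 with the combination against Control, BMP2 and RSPO2, and 34 in the interaction. For the combination and the interaction, quantile normalization gave 1626, 261, 1825 and 12, and median-of-ratios scaling 1639, 258, 1800 and 15. For RSPO2 alone, quantile normalization gave 5 and a pseudocount of 0.1 gave 0, and no filter gave 306 for the combination against BMP2. Replicates 2 and 3 alone, chosen after seeing the data, gave 195, 963, 3994, 2512, 4314 and 1109 over these 6 comparisons, which include 8, 169, 2380, 475, 2696 and 34 of the original calls. Leaving out 1 library gave 0 to 21, 65 to 403, 1595 to 2758, 60 to 709, 1847 to 3058 and 0 to 187. The highest count in each of the 6 comparisons came without BMP2+RSPO2 replicate 1. Scaling also evened the directions: the split in BMP2+RSPO2 against BMP2 was 129 higher and 129 lower, against RSPO2 844 and 956, in the interaction 3 and 12, and in BMP2 against Control 71 and 95 after median-of-ratios scaling. As deposited they were 74 and 432, 499 and 2516, 1 and 33, and 59 and 116.

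Of the 8 members, 0, 0, 5, 2, 4 and 0 were called in that order. Quantile normalization left 3, 1 and 2 for the combination against Control, BMP2 and RSPO2, and median-of-ratios scaling and no filter each left 1 against BMP2. Replicates 2 and 3 alone gave 3 for RSPO2 alone, 4 for BMP2 alone, 7 for the combination against BMP2 and 5 in the interaction. Smoc2, with the limit of the filter given above, was among the 7. Leaving out 1 library gave 0 to 1, 0 to 2, 3 to 5, 1 to 4, 4 to 5 and 0 to 3. Without the filter Sparc lost both calls (adjusted p = 0.331 against Control) and Tnc its call (0.083).

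Libraries with the same replicate number mostly deviated together: 16 of 18 same-numbered pairs correlated above 0.1 (-0.12 to 0.63), and 10 of 12 libraries were closest to their own number. The labels do not say that a number marks a shared batch. All 3 pairs were above 0.1 between RSPO2 and Control, BMP2+RSPO2 and Control, and BMP2+RSPO2 and BMP2, but not between BMP2 and Control or BMP2+RSPO2 and RSPO2. With the replicate block, calls over all genes were 26 with RSPO2 alone and 329 with BMP2 alone. They were 1710 for the combination against BMP2 and 91 for the interaction. Members called in BMP2 against Control were 2 (Tnc, adjusted p = 0.0381, and Thbs2, 0.0356). In BMP2+RSPO2 against BMP2 they were 5, with Tnn (0.0321), Thbs2 (0.0147) and Smoc2 (0.0492) added. Smoc2 passed the filter only through BMP2 and Control libraries, so its call is not support for a fall. In the interaction 1 was called (Thbs2, adjusted p = 0.0292).

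Among the members, signs turned only for changes that were not called. Thbs1 in RSPO2 against Control ranged from -0.24 to 0.36 without 1 library and was 0.17 with replicates 2 and 3. Postn in BMP2 against Control ranged from -0.06 to 0.02 without 1 library and was 0.05 (quantile), 0.04 (median-of-ratios) and 0 (replicates 2 and 3). In BMP2+RSPO2 against Control, Tnc was 0.13 and 0.05 and Tnn 0.20 and 0.18 under these scalings, Tnn ranging from -0.28 to 0.04 without 1 library. Tnn against RSPO2 was 0.02 and 0, and Sparc against BMP2 was -0.35 under quantile normalization. In the interaction, Thbs3 was 0.16 and 0.13 (-0.13 to 0.06 without 1 library), and Smoc2 was 0.12 under quantile normalization, 0.39 with a pseudocount of 0.1 and 0.11 with replicates 2 and 3 (-0.27 to 0.16 without 1 library). The cause of these differences was not tested. Depth is not known, and values under 1 FPKM, as for Smoc1 and Smoc2, carry an unknown counting error.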
